A study of Homo sapiens with 10 samples.

Results

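Genes of blood coagulation, complement and the serpin family were followed while cells of H1, a human embryonic stem cell (hESC) line, were differentiated into hepatocyte-like cells. The members were the rows of the expression table whose gene name was 1 of 53 listed symbols, and 35 of these were found among 12125 genes. They comprised 14 of 21 coagulation and fibrinolysis genes, 10 of 18 complement genes, 9 of 12 serpins and the plasma proteins A2M and HPX. The other 18 symbols (F5, F9, F11, F12, F13B, PROC, PROZ, C2, C4A, C4B, C6, C7, C8G, C9, VTN, SERPINA3, SERPINA7 and SERPINA10) matched no gene name and, apart from the identifier of VTN, were not analysed here.

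RNA was sequenced daily from day 0 to day 3 of a serum-free protocol, every other day from day 5 to day 13 and once more on day 21, with 1 library per day and no replicate. Day 0 was the untreated hESCs. Days 1 to 3 had Activin A (100 ng/ml) and are labelled as presumed definitive endoderm. Days 5 to 11 are labelled as presumed hepatoblasts, of which days 5 and 7 had FGF4 (30 ng/ml) plus BMP2 (20 ng/ml), and days 9 and 11 had HGF plus KGF (both 20 ng/ml). The labels of days 13 (presumed early hepatocyte-like) and 21 (presumed hepatocyte-like) name Oncostatin M, or OSM (20 ng/ml). By the protocol itself day 13 closes the HGF and KGF step, so the OSM label of that library stands against its own schedule. All libraries came from a single cell line, and day 0 is the only library without any of the factors named here. Its cells came from the maintenance medium of the line, and by the methods the base medium also changed during the course.

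In the adult body the liver secretes most of the proteins of the clotting cascade, in which protease zymogens activate one another until thrombin cuts fibrinogen into fibrin, and plasmin later dissolves the clot. Complement is a related cascade of plasma proteases that marks and lyses microbes, and it is held in check on host cells by membrane proteins. Serpins are a family named for serine protease inhibitors, many of which trap the proteases of both cascades, although some members carry hormones or inhibit no protease.

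The values were GC-normalized whole numbers on a scale that the libraries share. Library totals lay between 2330948 and 2362740 and medians between 81 and 82, so depth cannot be read from them, and no counting interval is given. The highest values fall into 10 narrow levels, each held by 9 or 10 genes in every library, and 18734 is the ceiling. Of the 35 genes, 6 reached such a level (FGA, FGB, SERPINA1, SERPINE2, A2M and HPX), and small moves of these genes between levels carry little information. Every gene in the table had at least 26 in at least 2 libraries. KNG1 and PLG met this only through days 13 and 21, and PLAUR only through days 0 and 21, so genes that stayed low throughout are missing from the table, and counts among the 35 describe the genes listed and not the whole cascades. A difference is that of log2(value + 1), which understates the change of low genes. A gene was counted as higher or lower on a day when this difference was at least 2, that is about 4-fold, and the larger value was at least 50. The onset of a gene is the first day that meets both conditions against day 0. With a single library per day these are descriptions without a test.

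By day 21, 27 of the 33 genes with a value of at least 50 on either day were higher than on day 0, against 11.9% of all genes tested. PLAU alone was lower, against 11.5% of all genes. The median log2 difference was 5.68 over the 35 genes, beside -0.12 over the whole table. The highest value was first reached at day 21 by 24 of the 35 genes, against 18.6% of all genes. On day 0, 15 of the genes had a value of 2 or less and 9 had at least 50. Within the course the counts of higher genes were 4 of 14 from day 0 to day 3 (3.94% of all genes), 10 of 21 from day 3 to day 7 (5.63%), 8 of 29 from day 7 to day 13 (3.08%) and 12 of 32 from day 13 to day 21 (2.28%). Lower genes numbered 0 from day 0 to day 3 (2.16% of all genes), 1 from day 3 to day 7 (4.41%), 2 from day 7 to day 13 (2.46%) and 0 from day 13 to day 21 (1.62%). Days 9 and 11, which share a medium, gave 0 higher and 0 lower members of 24, beside 0.107% of all genes in each direction. Their log2 differences ran from -1.42 (PLAU) to 1.47 (CFI), with a median size of 0.34. These figures also hold any change over those days, and 3 of the 24 genes (PLAU, CFI and F7) differed by at least 1. Days 5 and 7 share a medium too, and 5 coagulation genes, 3 complement genes and 4 serpins had their largest rise between them. FGB went from 52 to 4866 there and FGA from 49 to 1554, so a shared medium did not always go with little change.

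**Figure D1:**
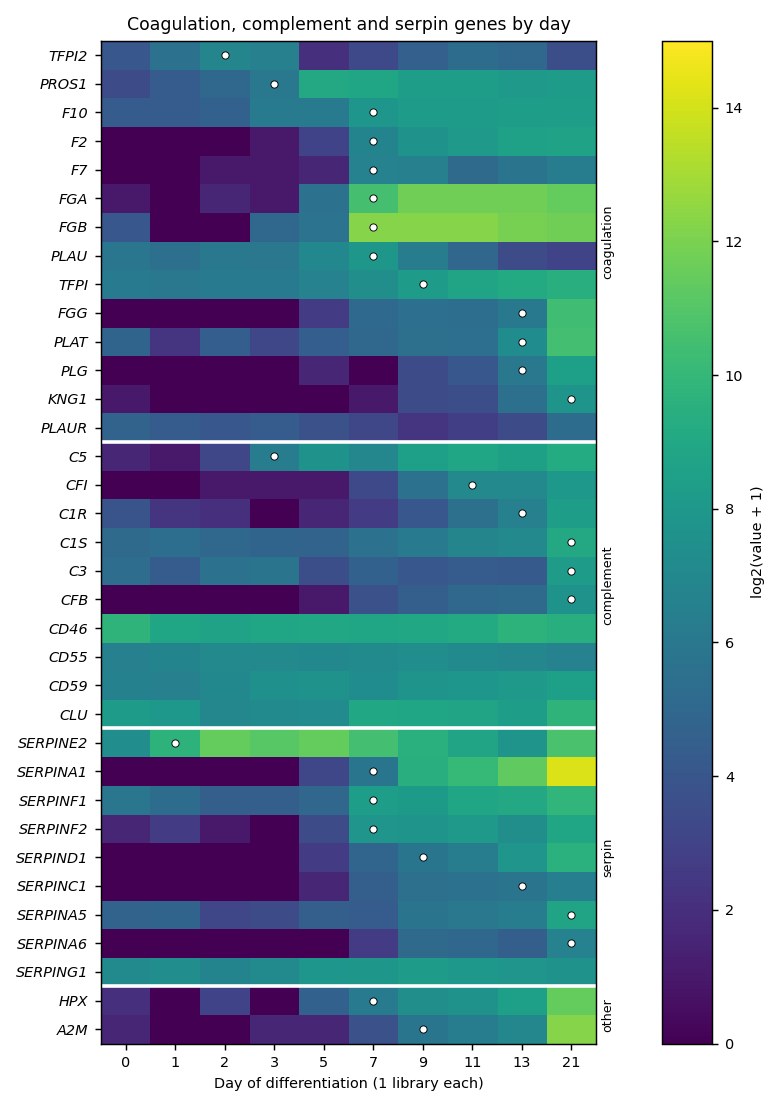
Level of each of the 35 genes (rows, grouped as coagulation, complement, serpin and other plasma protein) in each library (columns, day of differentiation), coloured by log2(value + 1). White points mark the onset day, and 10 of the 29 onsets fall on day 7 and 6 on day 21. Over all genes, 344 of 1850 onsets fall on day 7 and 323 on day 21.

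The groups came on over different spans of days. Of the coagulation genes, 8 of 14 had an onset by day 7 and 12 by day 13. Of the serpins, 4 of 9 had an onset by day 7 and 6 by day 13. Complement came later, with 1 of 10 genes by day 7, 3 by day 13 and 6 by day 21. Over all genes, 3.32% had an onset by day 3, 8.89% by day 7, 12.6% by day 13 and 15.3% by day 21. The median onset was day 7 for the 13 coagulation genes with an onset, day 8 for 8 serpins and day 17 for 6 complement genes, the last falling between sampled days. It was day 7 over the 1850 of all genes with an onset, the same as for coagulation. The identifier of VTN, a further complement gene, stands in the table under another name, and with it complement had 2 of 11 genes by day 7 and a median of day 13. Complement had the latest median under each of 10 other definitions, whereas serpins and coagulation tied at day 7 when a value of 20 counted as on. Measured by the first day at 50% of a gene's own maximum, the medians were days 9, 17 and 21 for coagulation, serpins and complement, and day 7 for all genes with an onset. Onsets on day 5 numbered 0 of 35 members and 331 of all 12125 genes, a share so small that the 0 says little. FGA was at 49 that day, just short of the 50 needed. Under Activin A, by day 3, 4 of the 35 members (11.4%) came on, against 3.32% of all genes. They were SERPINE2 on day 1, TFPI2 on day 2, and PROS1 and C5 on day 3.

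**Figure D2:**
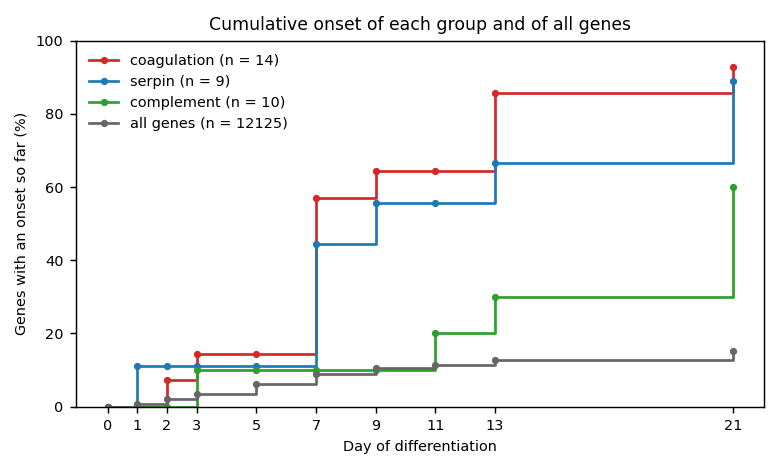
Cumulative share of genes with an onset (vertical axis, percent) by day of differentiation for 14 coagulation genes, 9 serpins, 10 complement genes and all 12125 genes. By day 7 the shares are 57.1% for coagulation, 44.4% for serpins, 10% for complement and 8.89% for all genes.

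FGA, FGB and FGG encode the alpha, beta and gamma chains of fibrinogen, the soluble precursor of the clot. A fibrinogen molecule needs all of them. FGA had values of 1, 0, 2 and 1 on days 0 to 3, 49 on day 5, 1554 on day 7, 3428 on days 9, 11 and 13, and 2796 on day 21. FGB had 16, 0, 0 and 32 on days 0 to 3, 52 on day 5, 4866 on days 7, 9 and 11, 3868 on day 13 and 3438 on day 21. Both chains were thus at or near their maximum soon after the FGF4 and BMP2 step, and their later values are moves between shared levels. FGG behaved differently: it was listed at 0 on days 0 to 3 and had 5, 34, 43, 41 and 66 on days 5, 7, 9, 11 and 13, and 1327 on day 21. FGG was at 2.56% of its own maximum on day 7 and at 4.97% on day 13. The log2 difference between days 13 and 21 was 4.31 for FGG, -0.29 for FGA and -0.17 for FGB.

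In the coordinates of the table FGB lies on chromosome 4 from 155484108 to 155492238 on the plus strand (ENSG00000171564), FGA from 155504278 to 155511918 on the minus strand (ENSG00000171560) and FGG from 155525286 to 155534001 on the minus strand (ENSG00000171557). FGB and FGA are 12.04 kb apart, and FGA and FGG 13.4 kb. The labels list hg19 and mm10 as builds without saying which the table uses, and the methods name mm10, a mouse build. The gene names and identifiers in the table are human, and hg19 is the only human build listed. The 250 bases before the RefSeq transcript start (GRCh38.p14) are shown for the fibrinogen genes, whose timing differed within the cluster, and for SERPINA1, the member with the largest difference between days 0 and 21. They lie on the plus strand at chr4:154562761-154563010 for FGB, on the minus strand at chr4:154590743-154590992 for FGA and at chr4:154612657-154612906 for FGG, and on the minus strand at chr14:94388603-94388852 for SERPINA1. FGB and SERPINA1 each have another start in RefSeq. Capitals mark matches on either strand to GTTAATNNT, a short form of the site of HNF1, a homeodomain factor of liver genes.
FGB: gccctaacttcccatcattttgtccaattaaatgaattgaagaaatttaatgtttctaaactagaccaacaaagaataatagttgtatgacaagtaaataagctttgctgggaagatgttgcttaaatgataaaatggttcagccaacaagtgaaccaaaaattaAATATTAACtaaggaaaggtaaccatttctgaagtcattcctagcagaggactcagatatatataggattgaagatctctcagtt
FGA: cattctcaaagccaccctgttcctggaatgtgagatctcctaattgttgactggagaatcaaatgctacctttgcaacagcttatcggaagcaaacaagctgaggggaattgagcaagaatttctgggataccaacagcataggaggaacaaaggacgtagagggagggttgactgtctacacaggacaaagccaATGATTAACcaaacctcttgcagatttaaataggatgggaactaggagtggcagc
FGG: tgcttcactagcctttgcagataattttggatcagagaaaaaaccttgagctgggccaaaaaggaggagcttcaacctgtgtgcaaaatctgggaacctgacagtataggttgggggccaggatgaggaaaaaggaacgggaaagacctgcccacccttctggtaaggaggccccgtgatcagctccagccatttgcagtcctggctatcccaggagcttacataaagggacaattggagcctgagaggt
SERPINA1: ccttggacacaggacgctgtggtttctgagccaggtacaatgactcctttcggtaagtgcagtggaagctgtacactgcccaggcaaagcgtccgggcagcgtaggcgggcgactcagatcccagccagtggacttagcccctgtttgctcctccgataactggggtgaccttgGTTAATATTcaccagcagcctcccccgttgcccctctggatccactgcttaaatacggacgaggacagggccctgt
The match began 85 bases before the FGB start, 55 before that of FGA and 76 before that of SERPINA1, and FGG had none in this window. At the other SERPINA1 start, upstream, there was no match, and the other FGB start holds the same match, 54 bases before it.

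Promoters were listed for 26 of the 35 genes. GTTAATNNT was found in 7 of the 26 (C5, F2, FGA, FGB, PLG, SERPINA1 and SERPINA6) and in 2.16% of all 35116 promoters of the same length. TTGCNNAA, a short form of the C/EBP site, was found in 8 of them and in 9.05% of all promoters, and TTCNNNGAA, bound by STAT factors, in 8 and in 6.57%. The short forms CAAAGTNCA for HNF4 and TGTTTAC for FOXA were found in 1 and 3, and in 0.94% and 2.98% of all promoters. Both strands were searched. Some genes have more than 1 listed start. For the 26 genes a match at any of their 37 starts counted, whereas the share of all promoters counts each start singly. The 2 are thus not in the same unit, which favours the members. A match of letters is not a bound site. Genes with a GTTAATNNT match had onsets from day 3 (C5) to day 21 (SERPINA6).

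F2 (prothrombin), F7 and F10 encode vitamin K-dependent protease zymogens, and all had their onset on day 7. F2 was at or below 1 up to day 3 and had 7 on day 5, 106 on day 7, 210 on day 9, 265 on day 11, 390 on day 13 and 405 on day 21. Each sampled day from day 3 onwards was above the one before. F7, which starts clotting with tissue factor, had 0, 0, 1, 1 and 2 on days 0 to 5, then 98, 90, 36, 53 and 78 on days 7, 9, 11, 13 and 21. Its highest value was thus on day 7, and its log2 difference of -1.30 between days 9 and 11 lies between libraries of the same medium. F10, the zymogen of the protease that makes thrombin, was present from the start, with 20, 20, 24, 68 and 74 on days 0, 1, 2, 3 and 5, and had 232 on day 7 and between 298 and 338 from day 9 to day 21. KNG1 encodes high-molecular-weight kininogen, the cofactor of the contact pathway. It was at or below 1 up to day 7, at 10, 11 and 46 on days 9, 11 and 13, and at 220 on day 21, its onset.

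Among the anticoagulants, PROS1 encodes protein S, the cofactor of activated protein C. PROS1 had 10, 20, 31 and 63 on days 0 to 3, its highest value of 527 on day 5, and then 450, 320, 320, 278 and 315 on days 7, 9, 11, 13 and 21. It was the only coagulation gene whose maximum fell on day 5. TFPI, the inhibitor of the tissue factor pathway, lay between 64 and 73 on days 0 to 3 and had 101, 170, 306, 435, 570 and 704 on the later days, highest on day 21. Its relative TFPI2 took the opposite course, with 16, 47, 114 and 91 on days 0 to 3 and 3 on day 5. Later TFPI2 values stayed between 9 and 38, below the day 2 value in every library. The log2 difference of TFPI2 was 2.44 between days 0 and 3 and -3.20 between days 3 and 7, and it was the single member lower on day 7 than on day 3.

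The fibrinolytic genes separated into late and transient ones. PLG, the plasmin precursor made by hepatocytes, was at or below 2 up to day 7 and had 10, 16, 62 and 358 on days 9, 11, 13 and 21. PLAT, the tissue plasminogen activator, ranged from 4 to 46 up to day 11 and had 154 on day 13 and 1490 on day 21. Their log2 differences between days 13 and 21 were 2.51 and 3.27. PLAU, the urokinase activator, had between 45 and 64 on days 0 to 3, 126 on day 5, 246 on day 7, 82 on day 9, 30 on day 11, 10 on day 13 and 7 on day 21. PLAU had thus peaked at the end of the FGF4 and BMP2 step, and from day 7 to day 13 its log2 difference was -4.49. PLAUR, the urokinase receptor, never exceeded 39 and had no onset, with 26 on day 0, a low of 4 on day 9 and 39 on day 21.

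**Figure D3:**
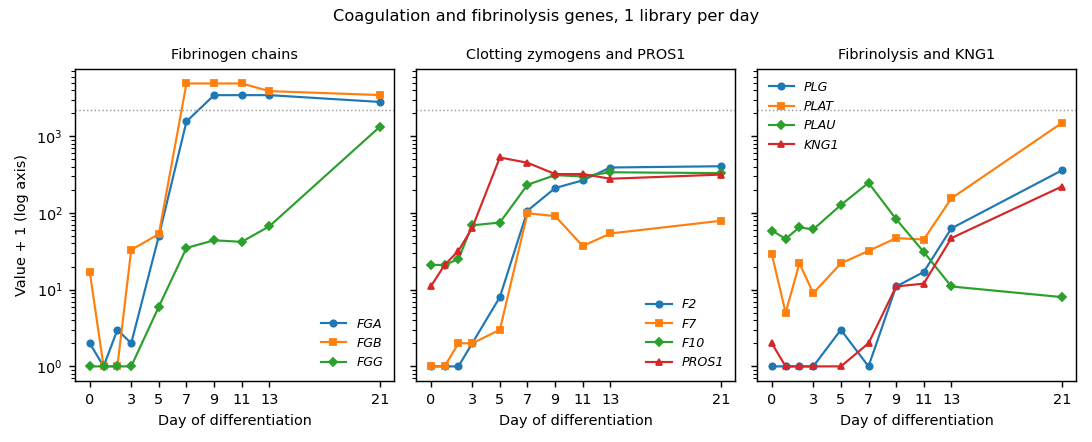
Value + 1 (log axis) by day of differentiation for the fibrinogen chains, the zymogens with PROS1, and the fibrinolysis genes with KNG1, 1 library per point. The dotted line is the lowest shared level, above which FGB sat from day 7 and FGA from day 9. FGG went from 66 on day 13 to 1327 on day 21, and PLAU fell from 246 to 7 between days 7 and 21.

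By the onset rule, complement components formed a late group. C1S and C3 had 36 and 40 on day 0, so they needed a value well above 50 to meet it. The largest log2 step of CFB, CFI and CLU lay between days 5 and 7, as did that of FGA, FGB and F2. It left CFB and CFI at 12 and 9, below the 50 needed. C1R and C1S encode the proteases of the C1 complex, which starts the classical pathway. C1R had 14 on day 0, between 0 and 5 on days 1 to 7, and 16, 46, 92 and 326 on days 9, 11, 13 and 21. C1S lay between 26 and 48 on days 0 to 7 and had 71, 113, 134 and 530 on the later days. Both were highest on day 21, and from day 7 each sampled day was above the one before. C3, the central component on which all pathways converge, had 40, 20, 50 and 54 on days 0 to 3 and between 11 and 24 on days 5 to 13. At day 21 it had 299, a log2 difference of 3.98 from day 13, while day 13 was below day 0. CFB, the protease of the alternative pathway, was listed at 0 on days 0 to 3, had 1, 12, 22, 32 and 35 on days 5 to 13, and 210 on day 21. C5, the component cleaved to begin the lytic complex, was the exception: it had 2, 1, 8 and 80 on days 0 to 3, 209 on day 5, 122 on day 7, 352, 446 and 372 on days 9, 11 and 13, and 604 on day 21. Its onset under Activin A came 8 days before that of the next of these 10 genes, CFI.

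Of the soluble regulators, CFI, the protease that inactivates C3b and C4b, was at or below 1 up to day 5 and had 9, 48, 135, 130 and 252 on days 7, 9, 11, 13 and 21. CLU, the chaperone clusterin, had 299 on day 0, a low of 122 on day 2, 512 on day 7, 337 on day 13 and 853 on day 21. CLU never met the onset rule, since its log2 difference between days 0 and 21 was 1.51. The membrane regulators CD46, CD55 and CD59, which protect the cell's own surface, were present in every library and none had an onset. CD46 was highest on day 0 (852), lowest on day 2 (398) and had 704 on day 21. CD55 stayed between 91 and 163. CD59, which blocks assembly of the lytic pore, had 94 on day 0, 186 on day 3, 262 on day 13 and 355 on day 21, a log2 difference of 1.91 that lies just short of the rule. All 6 complement genes with an onset encode secreted proteins, and of the 4 without one CLU is secreted too.

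The serpins of plasma came on over a wide span of days. SERPINA1 (ENSG00000197249), alpha-1-antitrypsin, the inhibitor of neutrophil elastase, was listed at 0 on days 0 to 3 and had 8, 56, 704, 1046 and 2640 on days 5, 7, 9, 11 and 13. It reached the ceiling of 18734 on day 21, with a log2 difference of 2.83 from day 13, a value that cannot show any further rise. SERPINF2, the inhibitor of plasmin, was at or below 10 up to day 5 and had 227, 220, 278, 171 and 470 on days 7, 9, 11, 13 and 21. SERPINC1 (antithrombin) and SERPIND1 (heparin cofactor II), both inhibitors of thrombin, were listed at 0 on days 0 to 3. SERPINC1 had 2, 22, 46, 47, 54 and 85 from day 5 to day 21, a course whose largest step, between days 5 and 7, left it below 50 until day 13. SERPIND1 had 5, 29, 55, 80, 222 and 758 on the same days, highest at the end. SERPINA5, an inhibitor of activated protein C, lay between 8 and 28 up to day 7 and had 54, 63, 80 and 436 on days 9, 11, 13 and 21.

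Other serpins have roles outside clotting. SERPINA6, the carrier of cortisol, was listed at 0 up to day 5 and had 5, 35, 31, 22 and 98 on days 7 to 21. SERPINF1, the non-inhibitory pigment epithelium-derived factor, had 59 on day 0, between 22 and 38 on days 1 to 5, 338 on day 7, 292 on day 9, 450 on day 11, 534 on day 13 and 936 on day 21. SERPING1, the inhibitor of the C1 proteases, had 139 on day 0, a high of 296 on day 9 and 202 on day 21, without an onset, while C1R and C1S, the proteases it inhibits, had onsets on days 13 and 21. SERPINE2 (protease nexin 1), a cell-associated inhibitor of thrombin and urokinase, had 164 on day 0, 839 on day 1, 2796 on day 2, the lowest shared level on day 3 and 2798 on day 5. It then fell through 1490, 724, 428 and 212 on days 7, 9, 11 and 13 and was at 1640 on day 21. SERPINE2 was the sole serpin with an onset before day 7, and it was lower on day 13 than on day 7 (log2 difference -2.81) and higher on day 21 than on day 13 (2.95).

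A2M (alpha-2-macroglobulin) traps proteases of any class, and HPX (hemopexin) binds free haem. A2M was at or below 2 up to day 5, had 12, 56, 80 and 120 on days 7, 9, 11 and 13, and 4858 on day 21. Its log2 difference between days 13 and 21 was 5.33, with the day 21 value at a shared level. HPX had between 0 and 7 on days 0 to 3, then 24, 70, 168, 198, 348 and 2798, with a difference of 3.00 over the same interval. Those counted as higher on day 21 than on day 13 were FGG, KNG1, PLG, PLAT, C3, CFB, SERPINA1, SERPINA5, SERPINA6, SERPINE2, A2M and HPX. FGA, FGB, F2, F7, F10, PROS1, TFPI, PLAU, CD46, CD55, CD59 and SERPING1 differed by 0.55 or less on the log2 scale over this interval, in either direction.

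**Figure D4:**
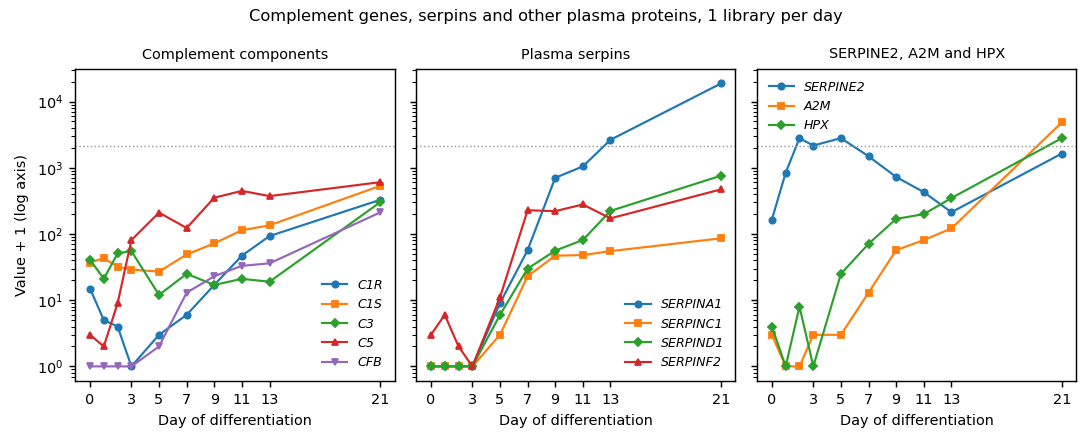
Value + 1 (log axis) by day of differentiation for complement components, plasma serpins, and SERPINE2 with A2M and HPX, 1 library per point, with the lowest shared level dotted. C3 and CFB were at 18 and 35 on day 13 and at 299 and 210 on day 21, C5 was at 80 by day 3, and SERPINE2 dipped to 212 on day 13.

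Further genes of the same systems, none of them members, were taken from lists. Their order of onset differed from that of the members, with medians of day 2 for 3 serpins, day 4 for 6 clotting genes and day 11 for 2 complement genes that had an onset. Of 13 other clotting and fibrinolysis genes found of 19 listed, 5 were higher and 0 lower on day 21 than on day 0. F3, which encodes tissue factor, the trigger of clotting, had 22 on day 0, 80 on day 13 and 1185 on day 21. It had 76, 72 and 96 on days 1 to 3, with its onset on day 3. THBD, the thrombin receptor thrombomodulin, had 0, 30 and 84 on days 0, 13 and 21. S100A10, a partner of annexin A2 at the cell surface, had 215, 1186 and 1186. Its onset was day 5 and its highest value 2026, on day 7. KLKB1, the gene of plasma prekallikrein, reached 62 on day 3 and was listed at 0 from day 7 onwards, which differs from the late course of KNG1, its partner in the contact pathway. Of 26 other complement genes only 4 were found, of which 2 were higher and 1 lower on day 21. MASP1, a protease of the lectin pathway, had 18 on day 0, 52 on day 7, 324 on day 9, 676 on day 13 and 652 on day 21. CD93, a C-type lectin once described as a C1q receptor, had 0, 14, 50 and 84 on days 0, 7, 13 and 21, C1RL had 59 on day 0 and 221 on day 21, and C1QBP went from 546 to 94. Of 6 other serpins found of 13 listed, 3 were higher and 0 lower. SERPINB9, an intracellular inhibitor of granzyme B, had 66 on day 0, 534 on day 1, the ceiling of 18734 on day 2, 6493 on day 3 and 351 on day 21. SERPINB6 had 72 on day 0 and 322 on day 21, and SERPINB1 had 48 and 102.

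Lists of liver regulators and of cell-type markers give the setting of these values. Of 9 liver transcription factors found of 12 listed, 6 had an onset, with a median of day 5, before the median of any group of members. HNF4A had 0 on day 0, 299 on day 5, 1044 on day 7 and 470 on day 21, FOXA1 had 0, 62, 121 and 54, and FOXA2 had 0, 184, 343 and 48. The summed value of 11 of 12 hepatocyte markers ran from 73 to 145 on days 0 to 3 and was 34107 on day 7, 52086 on day 13 and 80598 on day 21. In these cells AFP, the fetal serum protein, was at the ceiling from day 7. ALB, the adult one, had 168 on day 13 and 4866 on day 21, and TF and AHSG, like A2M and HPX, also had their maximum there, at 3865 and 6495. TTR was at the ceiling from day 9 and APOA2 lay between 1886 and 2636 from day 7 onwards.

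Markers of other cells changed over the same days. The 11 stromal markers, all found, summed to between 1548 and 3093 on days 0 to 5, 5376 on day 7, 39491 on day 13 and 42127 on day 21. COL3A1, LUM and DCN had 2643, 145 and 9 on day 7 and 6502, 4866 and 2802 on day 13, and the ceiling value of COL1A2, named here after its values were seen, makes up 18734 of the stromal sum on days 13 and 21. COL3A1 and DCN were at shared levels on both days, so the stromal sum says little about change after day 13. PDGFRA and PDGFRB, chosen in the same way and below those levels, had 333 and 290 on day 13 and 695 and 518 on day 21. THY1 was highest on day 0, at the lowest shared level, and at 12 on day 21. The 7 endothelial markers found of 8 summed to between 264 and 593 up to day 7, 2069 on day 13 and 1403 on day 21. Among them TEK had 889, CDH5 152, EMCN 48 and ESAM 50 on day 13. Only 3 of 10 macrophage markers were found, and these summed to between 13 and 74 from day 0 to day 13 and to 525 on day 21. CD68 and LYZ had 50 and 24 on day 13 and 259 and 201 on day 21, and LYZ had 18 on day 0 and 44 on day 5. PTPRC had 39, 12 and 18 on days 0, 1 and 2, was listed at 0 from day 3 to day 13 and had 65 on day 21. It had no onset. Of 6 platelet and megakaryocyte markers only ITGA2B was found, with 88 on day 13 and 28 on day 21. The 8 members higher on day 13 than on day 7 were C1R, CFI, PLG, PLAT, SERPINA1, SERPIND1, A2M and HPX. These 8 moved over the same days as the stromal, endothelial and hepatocyte sums. The hepatocyte sum went from 34107 to 52086 there, with 4 of its 11 genes higher. AFP was at the ceiling of 18734 on both days, and TTR went from 3430 to the ceiling. APOB, named here after its values were seen, had 4856 on day 13 and the ceiling value on day 21. Such values make up much of the hepatocyte sum, so it says little about its other genes. The 12 members higher on day 21 than on day 13 moved with the macrophage and hepatocyte sums and the PDGFRA and PDGFRB values. The part of such cells in the values of these members was not tested. In bulk RNA a change in the number of cells of a type and a change in the RNA of each cell cannot be told apart.

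**Figure D5:**
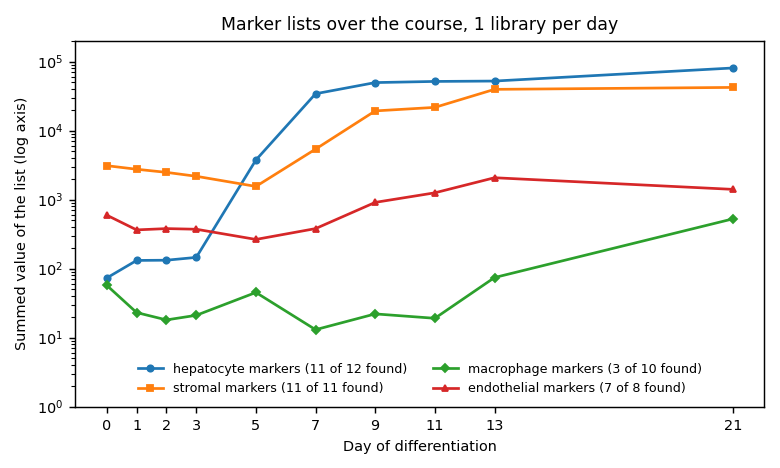
Summed value (log axis) of hepatocyte, stromal, macrophage and endothelial markers by day of differentiation, 1 library per day. The hepatocyte sum climbs from 145 on day 3 to 34107 on day 7, the stromal sum from 5376 on day 7 to 39491 on day 13, and the macrophage sum from 74 on day 13 to 525 on day 21.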

How the data were processed

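RNA of H1 cells was sequenced on 10 days of hepatic differentiation, with 1 library per day. Per the labels and the methods, the authors aligned reads with Bowtie2 2.2.0 and RSEM 1.2.17 to an Ensembl transcriptome (mm10 in the methods) and used EDASeq to correct for GC content. The deposited values are scores, whole numbers for 12125 genes, and not read counts. The methods state only an average depth, on a MiSeq, and the depth of each library is not preserved in the values. All columns matched a sample by day.

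The members, their groups and all lists were chosen with earlier results of these data known. Differences are of log2(value + 1). A change needed a difference of 2 or more and 50 or more in the larger value, and onset was the first day to meet this against day 0. Each member found may be named. Of other lists, up to 4 genes with the largest difference between days 0 and 21 are named, plus ALB and AFP. Some genes that this rule selects are not reported here. Alternatives were other pseudocounts, thresholds, filters and a median-of-ratios scaling. No test was run: days have 1 library each, and no model that pools days of one medium or fits a trend was made. The onset code was tested on simulated data. Promoters are from RefSeq (GRCh38.p14). Python 3.11.15, numpy 2.4.6, pandas 2.3.3 and matplotlib 3.10.9 were used.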

Additional observations from a re-analysis of the deposited data

Results flagged for a closer look

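VTN encodes vitronectin, a plasma protein that binds the terminal complement complex. Its symbol matched no gene name, but its Ensembl identifier (ENSG00000109072) stands in the table under the name SEBOX, a homeobox gene. This entry lay outside the comparisons and was above its day 0 level. It had 1, 0, 2 and 6 on days 0 to 3, 37 on day 5, 660 on day 7, 1184 on day 9, 1734 on day 11, 2636 on day 13 and 2968 on day 21. Under the rule used for the members its onset was day 7, and the log2 difference between days 0 and 21 was 10.54. Which of the 2 genes the reads came from was not tested.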

How the results depend on the processing

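Over 123 comparisons of a result with an alternative, 103 stayed and 20 moved, where a median stayed only if equal and a count if within 1.5 times the reported one. The median onset day of complement, 17, was 11 when a value of 20 counted as on and 21 when 100 did, 12 for a log2 rise of 1 and 21 for a rise of 3, 21 with median-of-ratios scaling, and 13 with the VTN identifier counted, an alternative chosen after seeing the data. That of serpins, 8, was 7 with a value of 20, 9 for a rise of 1, 11 for a rise of 3 and 11 without genes at the shared top levels. With the first day at 50% of a gene's own maximum, the medians were 9 for coagulation, 17 for serpins and 21 for complement. The order of the groups kept complement last in all 10 other alternatives, and serpins after coagulation in 9, with 1 tie. Without a filter on low values, 18 members counted as higher from day 3 to day 7 (10 as reported) and 2 as lower from day 0 to day 3 (0 as reported). When the larger value had to reach 200, the higher members numbered 1 from day 0 to day 3 (4 as reported), 6 from day 3 to day 7 (10 as reported) and 3 from day 7 to day 13 (8 as reported), and the lower members 0 from day 3 to day 7 and 0 from day 0 to day 21 (1 as reported in both). Other thresholds and filters change which genes enter a count, and the cause of the shift under the other scaling was not tested. Without replicates no library could be left out within a day, and the unknown depth of each library limits what low values can show.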
